A study of Homo sapiens with 18 samples.

Results

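The genes described here encode proteins that write or erase marks of repressive chromatin, or that the writers need. They include the DNA methyltransferases DNMT1, DNMT3A and DNMT3B and the dioxygenases TET1, TET2 and TET3. The Polycomb repressive complex 2 (PRC2) genes EZH1, EZH2, SUZ12 and EED complete the list. All were taken by gene symbol from an array study of an acute myeloid leukaemia line, with the probe of highest mean signal for each symbol. Of the 10 genes, 9 had a named probe, 1 probe each, among 21448 probes in all, of which 17709 carried 1 symbol. No probe was named EED in the annotation used, so that gene was not analysed here.

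DNMT3A and DNMT3B place methyl groups on unmethylated CpG sites, and DNMT1 copies the pattern onto the new strand after replication. TET enzymes oxidise 5-methylcytosine, which begins its removal, and loss of TET2 or mutation of DNMT3A is common in myeloid leukaemia. PRC2 methylates histone H3 at lysine 27 through its catalytic subunit, EZH2 or EZH1, and needs SUZ12 and EED to do so. EZH2 is known as the form of dividing cells and EZH1 as the form that resting cells keep.

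The study treated OCI-AML3, a human acute myeloid leukaemia cell line, for 24 h with RG7112 at 2 µM, with HDM201 at 500 nM or with the solvent DMSO, and measured 6 biological replicates per group on 18 arrays. Both are MDM2 inhibitors, and MDM2 is the ligase that marks p53 for destruction; the series asks how this p53 rise bears on immunity against leukaemia. The genotype is given as wildtype for every sample. As background, the line is known to carry a mutation in DNMT3A, and the array signals do not separate alleles. How the replicates were cultured is not stated, so p-values here reflect variation among these samples, which may be technical. Doses differ between the compounds and each was used at 1 dose and time, so the treated groups are given side by side.

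Values are log2 signals, a scale on which a difference of 1 is a doubling. Medians per array were 6.44 to 6.57 and lower quartiles 4.57 to 4.79, and precision is limited by the number of arrays. A change is the difference between group means in a linear model over all probes (limma) with its standard error (SE) and 6 arrays per group, and a gene is said to have risen or fallen where the p adjusted over all probes (Benjamini-Hochberg) was under 0.05. The p53 targets CDKN1A and MDM2 rose 15.6-fold and 5.95-fold under RG7112 and 17.2-fold and 5.98-fold under HDM201. Of 7 measured myeloid markers, LYZ was the brightest (12.92 under RG7112 and 12.95 under HDM201, against 12.70 under DMSO). The others averaged 3.61 (KIT) to 7.27 (CSF1R) under DMSO. ITGAM, an integrin of mature myeloid cells, rose by 2.09 under RG7112 (adjusted p = 9.29e-05) and by 2.18 under HDM201 (4.03e-05), and the other 6 did not pass. Of 5 lymphocyte genes none passed: CD3D, CD2 and MS4A1 had group means of 3.68 to 4.00, CD3E 4.76 to 5.01 and CD79A 6.83 to 6.95. Of 5 erythroid and megakaryocyte and 6 fibroblast and epithelial genes, KRT8 rose under RG7112 (0.44, adjusted p = 0.0307) and EPCAM fell under HDM201 (-0.40, adjusted p = 0.00585). Under DMSO COL1A2 (8.24) and KRT8 (7.72) were above every myeloid marker but LYZ, though signals of different probes have no common scale. The part of these markers in the results below was not tested. Replicates 1 to 3 had stood apart from replicates 4 to 6 across the table in earlier work on these data. Changes within these sets are therefore given for part of the genes. RG7112 replicate 3 differed from its group, with a mean correlation of 0.972 over probes against 0.986 to 0.988 for the other RG7112 arrays, and where leaving it out changed the call of a named gene, the value without it is given.

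Promoter sequences of DNMT3B, DNMT1, EZH2 and SUZ12, which fell under both compounds, and of EZH1, which rose under HDM201, are shown first, because genes of dividing cells often carry E2F or CHR elements near the start. The sequences are RefSeq's (GRCh38.p14), 5′ to 3′ on the gene's strand, from 220 bases before to 30 bases after the most upstream listed start. Capitals mark matches on either strand to 4 forms of the E2F core or to the CHR element. The E2F forms sought were TTCCCGC as found in SUZ12, then TTCGCGC as found in DNMT1, then TTGGCGC as found in EZH2 and last TTGCCGC as found in EZH1. The CHR forms were TTTGAA, also found in SUZ12, and as the other form TTCGAA.
DNMT3B, chr20:32779632-32779881, plus strand: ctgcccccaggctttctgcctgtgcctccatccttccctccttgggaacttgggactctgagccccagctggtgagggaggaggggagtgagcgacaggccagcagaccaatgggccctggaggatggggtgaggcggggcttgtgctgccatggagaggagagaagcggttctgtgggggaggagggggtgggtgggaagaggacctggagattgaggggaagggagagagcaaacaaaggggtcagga
DNMT1, chr19:10194924-10195173, minus strand: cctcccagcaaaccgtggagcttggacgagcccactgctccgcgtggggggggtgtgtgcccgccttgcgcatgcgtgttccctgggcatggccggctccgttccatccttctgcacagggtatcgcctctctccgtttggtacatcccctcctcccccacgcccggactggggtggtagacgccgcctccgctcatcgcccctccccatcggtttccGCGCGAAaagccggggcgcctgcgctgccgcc
EZH2, chr7:148884262-148884511, minus strand: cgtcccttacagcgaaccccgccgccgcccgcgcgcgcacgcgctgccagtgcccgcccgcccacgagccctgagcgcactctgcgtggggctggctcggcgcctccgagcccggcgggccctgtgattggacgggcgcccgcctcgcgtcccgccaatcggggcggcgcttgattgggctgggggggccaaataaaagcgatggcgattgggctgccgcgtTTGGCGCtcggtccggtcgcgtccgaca
SUZ12, chr17:31936787-31937036, plus strand: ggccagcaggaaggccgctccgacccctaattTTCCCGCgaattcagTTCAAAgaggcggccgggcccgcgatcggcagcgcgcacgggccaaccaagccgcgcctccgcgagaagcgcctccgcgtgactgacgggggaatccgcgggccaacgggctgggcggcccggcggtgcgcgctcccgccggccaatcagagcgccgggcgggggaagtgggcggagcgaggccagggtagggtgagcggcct
EZH1, chr17:42745011-42745260, minus strand: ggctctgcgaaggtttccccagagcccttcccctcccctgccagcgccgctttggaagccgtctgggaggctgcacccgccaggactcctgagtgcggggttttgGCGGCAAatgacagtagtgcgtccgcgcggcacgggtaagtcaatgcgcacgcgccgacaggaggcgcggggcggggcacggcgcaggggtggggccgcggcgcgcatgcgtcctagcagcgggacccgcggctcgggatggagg

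In the table's windows of 300 bases, E2F letters were found at -2 to 5 in DNMT1, at 3 to 9 in EZH2, at -188 to -182 in SUZ12 and at -115 to -109 in EZH1, counted from the start as base 1 with no base 0. SUZ12 also held CHR letters on the opposite strand at -173 to -168, and no matches overlapped. All 10 genes matched the table, and 5 held E2F letters in the most upstream window, TET3 being the other one, against 13% of the 27326 genes with a listed window. Each E2F form sought contains a CpG. The 5 windows with E2F letters held 30 to 46 CpG sites and the other 5 held 3 to 18. The shares were not compared at a like CpG count. CHR letters occurred in 2 of the 10, SUZ12 and TET2, against 16.7%. TET1, which also fell under both compounds, and TET2, which also rose under HDM201, are not printed. Their most upstream windows held no E2F letters. The single DNMT3B window, which lies inside the gene's listed span and so is not its most upstream start, held neither motif, and it had 3 CpG sites, where the EZH2 window held 46 and the median gene 14. A match describes letters only, and the part of these motifs in the changes was not tested.

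Of the 9 measured genes, 5 fell under both compounds: DNMT3B, DNMT1, TET1, EZH2 and SUZ12. TET2 and EZH1 rose under HDM201, and DNMT3A and TET3 passed under neither compound. Under RG7112 0 of the 9 rose, 5 fell and 4 did not pass, and over the whole array 17.5% of probes passed, with 7.9% rising and 9.61% falling. Under HDM201 2 rose, 5 fell and 2 did not pass, against 18.8% of all probes, with 9.16% rising and 9.64% falling. With each array's median subtracted, the split over all probes for RG7112 was 1268 up and 2551 down, in place of 1695 up and 2062 down. The median change of the 9 genes was -0.51 for RG7112 and -0.39 for HDM201, where the median of all probes was 0.03 and 0.02. Arrays of the treated and DMSO groups did not overlap for 4 genes that were lower under RG7112, and for 4 lower and 2 higher under HDM201. Over all probes, 5.61% were lower and 4.29% higher without overlap under RG7112, 9.9% in all, and 6.92% were lower and 6.63% higher under HDM201, 13.6% in all. Both comparisons use the same 6 DMSO arrays.

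**Figure D1:**
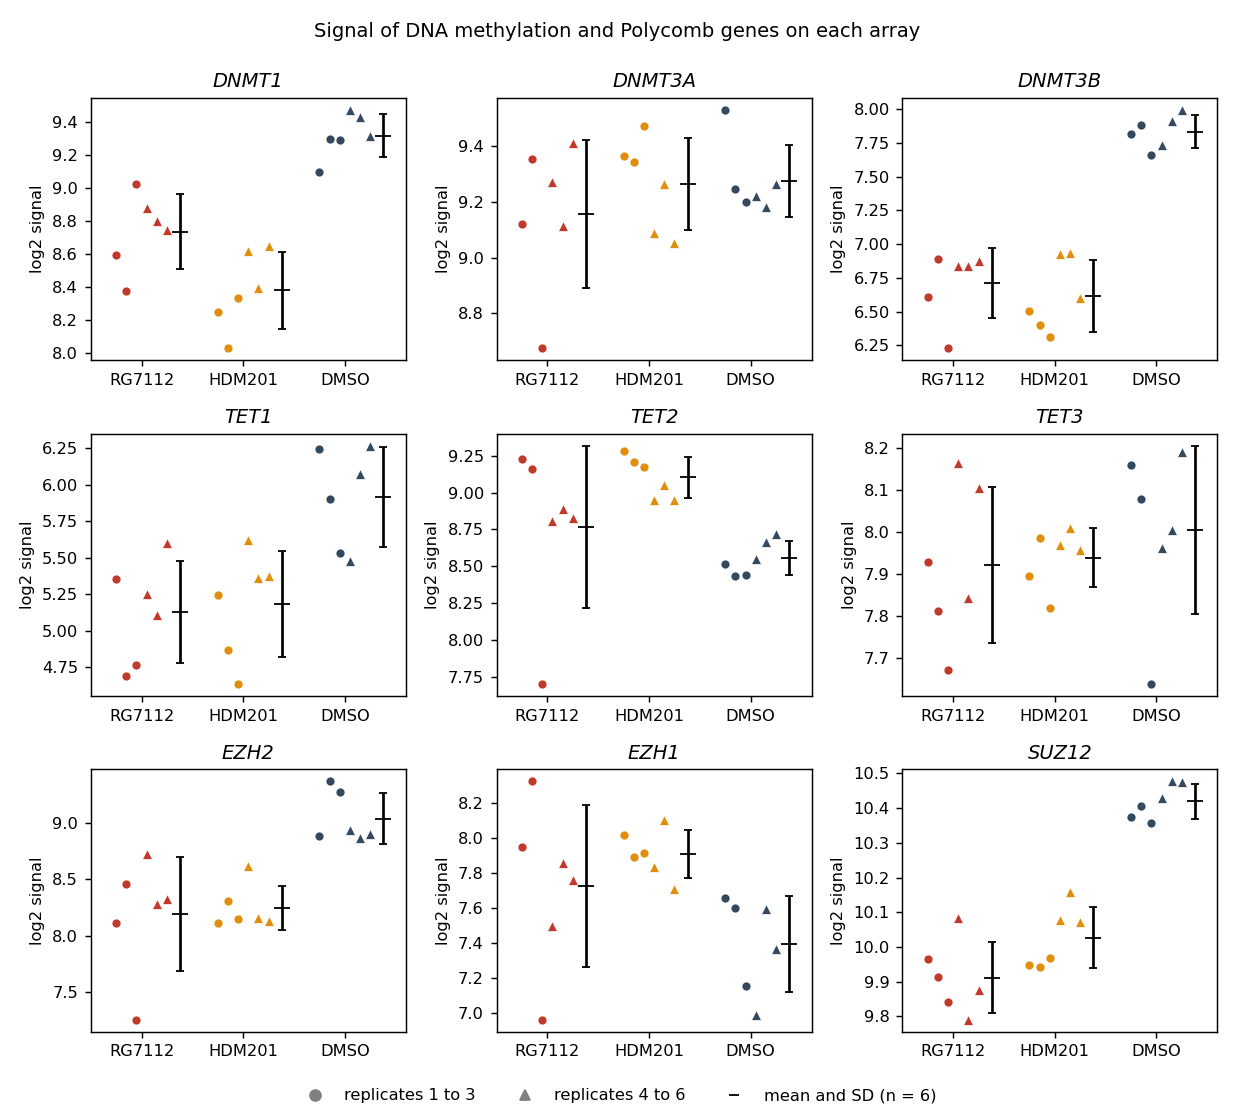
Log2 signal of the 9 measured genes on each array, with treated groups left of DMSO; circles are replicates 1 to 3, triangles replicates 4 to 6, and bars show the mean and SD (n = 6). DNMT3B separates the most from DMSO, and the isolated low RG7112 circle in TET2, EZH2, EZH1 and DNMT3A is replicate 3.

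DNMT3B, a de novo methyltransferase, fell the most of the 9. Its signal ran from 6.23 to 6.89 (median 6.84) on the RG7112 arrays and from 6.31 to 6.93 (median 6.55) on the HDM201 arrays, against 7.66 to 8.0 (median 7.85) on the DMSO arrays. Every treated array lay below every DMSO array. The fall was 2.18-fold under RG7112 (log2 change -1.12 ± 0.12 SE, adjusted p = 2.05e-06) and 2.33-fold under HDM201 (-1.22 ± 0.12, adjusted p = 4.03e-07). It held in both replicate sets, at -1.21 within replicates 1 to 3 and -1.04 within 4 to 6 for RG7112 and at -1.38 and -1.06 for HDM201.

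DNMT1, the maintenance methyltransferase, had 8.37 to 9.02 (median 8.77) under RG7112 and 8.03 to 8.65 (median 8.37) under HDM201, against 9.10 to 9.47 (median 9.31) under DMSO. The groups did not overlap, the highest RG7112 array (9.02) and the lowest DMSO array (9.10) being close. DNMT1 fell 1.5-fold under RG7112 (-0.58 ± 0.11, adjusted p = 9.81e-04) and 1.92-fold under HDM201 (-0.94 ± 0.11, adjusted p = 3.50e-06). For RG7112 replicates 1 to 3 gave -0.57, which did not pass (adjusted p = 0.0626), and replicates 4 to 6 gave -0.60.

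DNMT3A, the other de novo enzyme, did not pass. It averaged 9.16 ± 0.27 under RG7112 and 9.26 ± 0.16 under HDM201, against 9.27 ± 0.13 under DMSO (SD, n = 6 each), and the groups overlapped. The 95% interval of its change was -0.35 to 0.11 for RG7112 and -0.24 to 0.22 for HDM201. RG7112 replicate 3 was its lowest RG7112 array (8.68), without which the change was -0.02 in place of -0.12, and DMSO replicate 1 was its highest array overall (9.53).

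The paralogs therefore parted within the arrays. The DNMT3A signal minus the DNMT3B signal averaged 2.45 ± 0.09 under RG7112 and 2.65 ± 0.39 under HDM201, against 1.44 ± 0.17 under DMSO (SD, n = 6 each). Only the shift of such a difference between groups can be read, since signals of different probes have no common scale. The shift was 1.01 for RG7112 and 1.21 for HDM201, each with p = 0.00216 in a two-sided exact permutation test, the smallest p this test can give, and adjusted p = 0.00309 over 10 such tests.

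TET1, a dioxygenase with a CXXC domain, was dim: 4.69 to 5.60 (median 5.18) under RG7112 and 4.63 to 5.62 (median 5.30) under HDM201, against 5.48 to 6.27 (median 5.99) under DMSO. The treated and DMSO arrays overlapped, and part of the treated values reached the lower quartile of the arrays. TET1 fell 1.73-fold under RG7112 (-0.79 ± 0.18, adjusted p = 0.00433) and 1.66-fold under HDM201 (-0.73 ± 0.18, adjusted p = 0.00625). Within replicates 1 to 3 the changes were -0.96 and -0.98, and within 4 to 6 they were -0.62 and -0.49 and did not pass (adjusted p = 0.0628 and 0.133).

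TET2, the enzyme whose loss is common in myeloid leukaemia, ran from 8.95 to 9.28 (median 9.12) under HDM201, against 8.43 to 8.72 (median 8.54) under DMSO. These groups did not overlap, and TET2 rose 1.46-fold (0.55 ± 0.17, adjusted p = 0.0305). Under RG7112 it ran from 7.70 to 9.22 (median 8.86) and did not pass (0.21 ± 0.17, adjusted p = 0.440). Replicate 3 held the 7.70 and the other 5 RG7112 arrays lay at 8.81 to 9.22, all above the DMSO arrays. Without that array TET2 rose under RG7112 by 0.43 (adjusted p = 0.00289), and the HDM201 adjusted p was 1.03e-04, since all groups share an estimate of the spread. With RG7112 replicate 3 kept, the HDM201 call was lost without any 1 of DMSO replicates 1 to 4 or HDM201 replicates 1 to 3, where the change was 0.51 to 0.55 (adjusted p from 0.0505 to 0.0690). It was also lost with each array's median subtracted (0.51, adjusted p = 0.0504). The HDM201 change was 0.76 within replicates 1 to 3, which did not pass (adjusted p = 0.180), and 0.34 within 4 to 6, and the RG7112 changes were 0.23 and 0.20.

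TET3 did not pass, at 7.92 ± 0.19 under RG7112 and 7.94 ± 0.07 under HDM201, against 8.01 ± 0.20 under DMSO (SD, n = 6 each), with intervals of -0.29 to 0.12 and -0.27 to 0.14 for the changes. The TET1 minus TET2 signal shifted by -1.0 under RG7112 (exact permutation p = 0.00433, adjusted p = 0.00481) and by -1.28 under HDM201 (0.00216, adjusted 0.00309). The TET1 minus TET3 signal shifted by -0.70 (adjusted p = 0.00309, exact permutation test) and -0.67 (0.00481). The TET2 minus TET3 signal shifted by 0.61 under HDM201 (adjusted p = 0.00309, exact permutation test) and by 0.30 under RG7112 (0.193), or by 0.46 without RG7112 replicate 3 (0.0173).

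**Figure D2:**
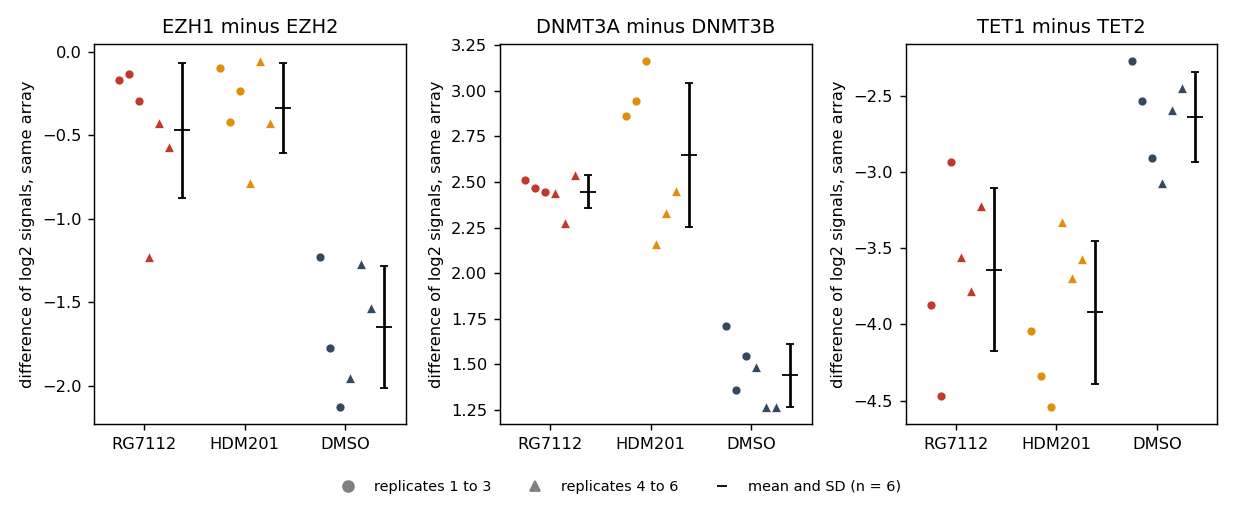
Difference in log2 signal between paralogs on the same array, with treated groups left of DMSO; circles are replicates 1 to 3, triangles replicates 4 to 6, and bars show the mean and SD (n = 6). DNMT3A minus DNMT3B averaged 2.45 and 2.65 under RG7112 and HDM201, against 1.44 under DMSO.

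EZH2, the PRC2 methyltransferase of dividing cells, had 7.25 to 8.72 (median 8.31) under RG7112 and 8.11 to 8.62 (median 8.15) under HDM201, against 8.87 to 9.37 (median 8.92) under DMSO. All treated arrays lay below the DMSO arrays, with RG7112 replicate 3 the lowest. EZH2 fell 1.80-fold under RG7112 (-0.85 ± 0.18, adjusted p = 0.00163) and 1.73-fold under HDM201 (-0.79 ± 0.18, adjusted p = 0.00231). Without RG7112 replicate 3 the RG7112 change was -0.66 (adjusted p = 6.59e-04). For RG7112 replicates 1 to 3 gave -1.24, and replicates 4 to 6 gave -0.46, which did not pass (adjusted p = 0.0810). The HDM201 values were -0.99 and -0.60.

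EZH1, its paralog, moved the other way under HDM201. It ran from 7.71 to 8.10 (median 7.90) under HDM201, against 6.99 to 7.65 (median 7.48) under DMSO, without overlap, and rose 1.43-fold (0.52 ± 0.17, adjusted p = 0.0336). Under RG7112 it ran from 6.96 to 8.32 (median 7.81), overlapped DMSO and did not pass (0.33 ± 0.17, adjusted p = 0.187). The 6.96 was again replicate 3, and without it EZH1 rose under RG7112 by 0.48 (adjusted p = 0.0173). The HDM201 call had an adjusted p of 0.00551 without RG7112 replicate 3. It was lost without any 1 of DMSO replicates 3, 4 or 6 or HDM201 replicates 1, 2, 3 or 5, where the change was 0.44 to 0.52 (adjusted p from 0.0563 to 0.0928). It was also lost with each array's median subtracted (0.48, adjusted p = 0.0557). The HDM201 change was 0.47 within replicates 1 to 3, which did not pass (adjusted p = 0.386), and 0.56 within 4 to 6, and the RG7112 changes were 0.28 and 0.39.

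The shift of EZH1 relative to EZH2 was larger than the spread between arrays. The EZH1 signal minus the EZH2 signal averaged -0.47 ± 0.41 under RG7112 and -0.34 ± 0.27 under HDM201, against -1.65 ± 0.36 under DMSO (SD, n = 6 each). The shift was 1.18 for RG7112 and 1.31 for HDM201, each with exact permutation p = 0.00216 and adjusted p = 0.00309. Without RG7112 replicate 3 the RG7112 shift was 1.14 (adjusted p = 0.00309, exact permutation test), because that array was low for both genes.

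SUZ12, the scaffold of PRC2, was the least variable of the 9 under DMSO and fell by a small amount. It ran from 9.79 to 10.08 (median 9.90) under RG7112 and from 9.94 to 10.16 (median 10.02) under HDM201, against 10.36 to 10.48 (median 10.42) under DMSO. Every treated array lay below every DMSO array. SUZ12 fell 1.42-fold under RG7112 (-0.51 ± 0.07, adjusted p = 1.86e-05) and 1.31-fold under HDM201 (-0.39 ± 0.07, adjusted p = 2.21e-04), and passed within both sets.

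**Figure D3:**
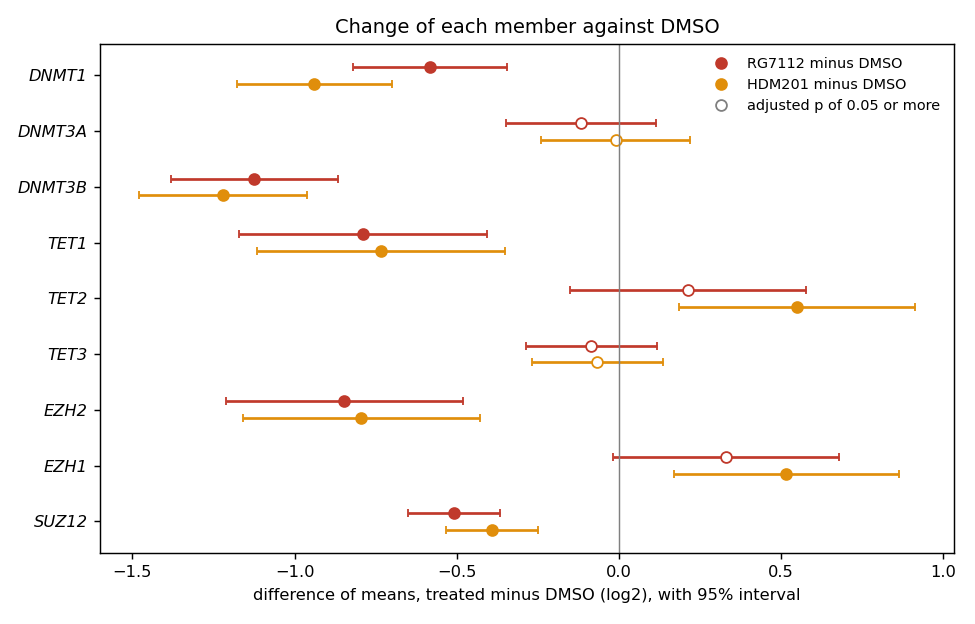
Change of each gene against DMSO on the log2 scale with its 95% interval (6 arrays per group); filled points have an adjusted p under 0.05 and open points do not. Intervals of DNMT1, DNMT3B, TET1, EZH2 and SUZ12 lie below 0 for both compounds, and those of TET2 and EZH1 lie above 0 for HDM201.

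For no member did the response pass the test of a difference between the replicate sets (0 of 9 for RG7112 and 0 of 9 for HDM201, against 0.0373% and 0.149% of all probes). At an unadjusted p under 0.05 in limma there was 1 for RG7112, EZH2, whose response differed by -0.78 ± 0.32 between the sets (adjusted p = 0.798), and 0 for HDM201. Of all 21448 probes, 1309 had such a p for RG7112 and 1315 for HDM201.

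HDM201 set directly against RG7112 gave 0 of the 9 genes and 0% of all probes in limma. The 2 treated groups overlapped for all 9, against 0.0839% of all probes without overlap (0.042% higher and 0.042% lower). In limma, 749 probes and 1 of the 9 genes had an unadjusted p under 0.05. That gene was DNMT1, at 8.38 ± 0.23 under HDM201 and 8.74 ± 0.23 under RG7112 (SD, n = 6 each), a difference of -0.36 with a 95% interval of -0.59 to -0.12 (adjusted p = 0.991 in limma). The intervals of the other genes included 0: DNMT3B -0.36 to 0.16, EZH2 -0.31 to 0.42, TET2 -0.03 to 0.70 and SUZ12 -0.03 to 0.26. Without RG7112 replicate 3 the TET2 difference was 0.12 in place of 0.34. The doses differ, and a p that misses the threshold does not show that the groups are alike.

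Some partners of DNMT1 fell too. UHRF1, which brings DNMT1 to hemimethylated DNA, fell 2.34-fold under RG7112 (-1.22 ± 0.18, adjusted p = 5.10e-05) and 3.22-fold under HDM201 (-1.69 ± 0.18, adjusted p = 7.05e-07). HELLS, a chromatin remodeller needed for full methylation, fell 2.46-fold and 3.27-fold. MBD4, a thymine glycosylase that repairs deaminated methylcytosine, fell by 0.45 on the log2 scale under each. Its changes were -0.68 and -0.67 within replicates 1 to 3. Within 4 to 6 they were -0.22 and -0.23 and did not pass (limma adjusted p = 0.136 and 0.118). Of 12 measured maintenance partners and readers 5 fell under RG7112 and 4 under HDM201, and none rose, where 9.61% and 9.64% of all probes fell. The other calls, USP7 (-0.23) and MBD2 (-0.26) under RG7112 and UHRF2 (-0.28) under HDM201, were small. USP7 lost its call without any 1 of 7 arrays, MBD2 without any 1 of 8 and UHRF2 without any 1 of 3. RG7112 replicate 3 was among the arrays for USP7 (-0.21, adjusted p = 0.0675) and MBD2 (-0.19, 0.0748). DNMT3L, a catalytically inactive cofactor, differed most among those that did not pass under RG7112 (0.35 ± 0.12, adjusted p = 0.0516), and MBD3, a subunit of NuRD, under HDM201 (-0.23 ± 0.11, adjusted p = 0.168). Without RG7112 replicate 3, MBD3 passed under RG7112 (-0.32, adjusted p = 0.0120) and HDM201 (0.0418), MBD2 passed under HDM201 (-0.19, 0.0415), and DNMT3L was at 0.24 (0.106). The median change of the list was -0.17 under each compound.

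Among 11 measured genes of demethylation and of the supply of TET cofactors, the same 2 passed under both compounds, a share near that of all probes (17.5% and 18.8%). IDH2, which makes alpha-ketoglutarate in mitochondria, fell 1.49-fold under RG7112 (-0.58 ± 0.08, adjusted p = 3.71e-05) and 1.66-fold under HDM201 (-0.73 ± 0.08, adjusted p = 1.27e-06). SLC23A2, a vitamin C transporter, rose 1.38-fold and 1.52-fold. The other 9 did not pass, the largest differences being APEX1, the abasic site nuclease, under RG7112 (-0.16 ± 0.11, adjusted p = 0.336) and OGT, which binds TET enzymes, under HDM201 (0.22 ± 0.11, adjusted p = 0.195). Leaving out RG7112 replicate 3, APEX1 was at -0.05 (adjusted p = 0.737) and OGT, at 0.25 under RG7112 (0.0678), differed more. The list's median change was 0.02 and 0.05.

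PRC2 cofactors fell in part. PHF19, which anchors PRC2 to chromatin, fell 2.00-fold under RG7112 (-1.0 ± 0.15, adjusted p = 8.67e-05) and 2.02-fold under HDM201 (-1.01 ± 0.15, adjusted p = 5.05e-05). RBBP7 and RBBP4, histone-binding subunits, fell 1.70-fold and 1.19-fold under RG7112 and 1.91-fold and 1.30-fold under HDM201. MTF2, a relative of PHF19, fell 1.5-fold and 1.46-fold. Of 10 measured cofactors 4 fell and none rose under RG7112, where 9.61% of all probes fell and 7.9% rose. Under HDM201 4 fell and 1 rose, where 9.64% of all probes fell and 9.16% rose, so the rise is near the background. The riser was JARID2 (0.28 ± 0.09, adjusted p = 0.0402, a call held in 11 of 18 fits without 1 array), which helps to recruit PRC2 and was the largest difference that did not pass under RG7112 (0.20 ± 0.09, adjusted p = 0.145). LCOR differed by 0.14 ± 0.10 under HDM201 (adjusted p = 0.400). The median change was -0.10 and -0.04.

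PRC1, some forms of which read the PRC2 mark, was mixed. Of 19 measured subunits 2 rose and 5 fell under RG7112, and 2 rose and 3 fell under HDM201, with a median of -0.05 and 0.03. Of all probes 7.9% rose and 9.61% fell under RG7112, and 9.16% and 9.64% under HDM201, so the rises are near the background. PCGF1, the core of the variant PRC1 with BCOR, rose 1.44-fold under RG7112 (0.53 ± 0.09, adjusted p = 3.28e-04) and 1.57-fold under HDM201 (0.65 ± 0.09, adjusted p = 2.61e-05). PCGF6, another core subunit, fell under HDM201 by 0.46 on the log2 scale and PHC1, a polyhomeotic subunit, rose by 0.44. SCML2 fell by 0.50 under each compound, L3MBTL2 fell by 0.44 and CBX7, which binds the mark, rose by 0.48 under RG7112. In fits without 1 array the SCML2 call held in 15 of 18 for RG7112 and 14 of 18 for HDM201, that of L3MBTL2 in 13 and that of CBX7 in 10. PCGF2 was the largest difference that did not pass, at -0.44 and -0.45 (adjusted p = 0.0801 and 0.0689). Without RG7112 replicate 3, CBX7 (0.35, adjusted p = 0.0885) and L3MBTL2 (-0.30, 0.0573) lost their RG7112 calls, SCML2 was at -0.33 (0.0266) and PHC1 passed (0.32, 0.0445). In that fit CBX7 (0.0170), L3MBTL2 (0.00797) and PCGF2 (0.0345) passed under HDM201, where 11 of the 19 subunits passed in place of 5. Over all probes, calls under HDM201 also rose in that fit, to 5212 in place of 4032.

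Of 7 measured erasers of the Polycomb marks, 1 rose and 0 fell under RG7112, near the share of all probes that passed (17.5%). Under HDM201 2 rose and 1 fell, where 9.16% of all probes rose and 9.64% fell. MYSM1, a deubiquitinase of histone H2A, rose 1.43-fold under RG7112 (0.51 ± 0.08, adjusted p = 1.91e-04) and 1.41-fold under HDM201 (0.49 ± 0.08, adjusted p = 2.08e-04). KDM6A, a demethylase of H3 lysine 27, rose 1.32-fold and ASXL1, a cofactor of the deubiquitinase BAP1, fell 1.30-fold under HDM201. KDM6A and ASXL1 did not pass under RG7112 (0.16, adjusted p = 0.171, and -0.20, adjusted p = 0.160). ASXL2 differed by -0.21 under RG7112 (adjusted p = 0.294) and the demethylase KDM6B by 0.18 under HDM201 (adjusted p = 0.549). With RG7112 replicate 3 left out, ASXL1 fell under RG7112 (-0.28, adjusted p = 0.0224) and ASXL2 was at -0.05 (0.693). The median change of the erasers was -0.07 and 0.03.

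**Figure D4:**
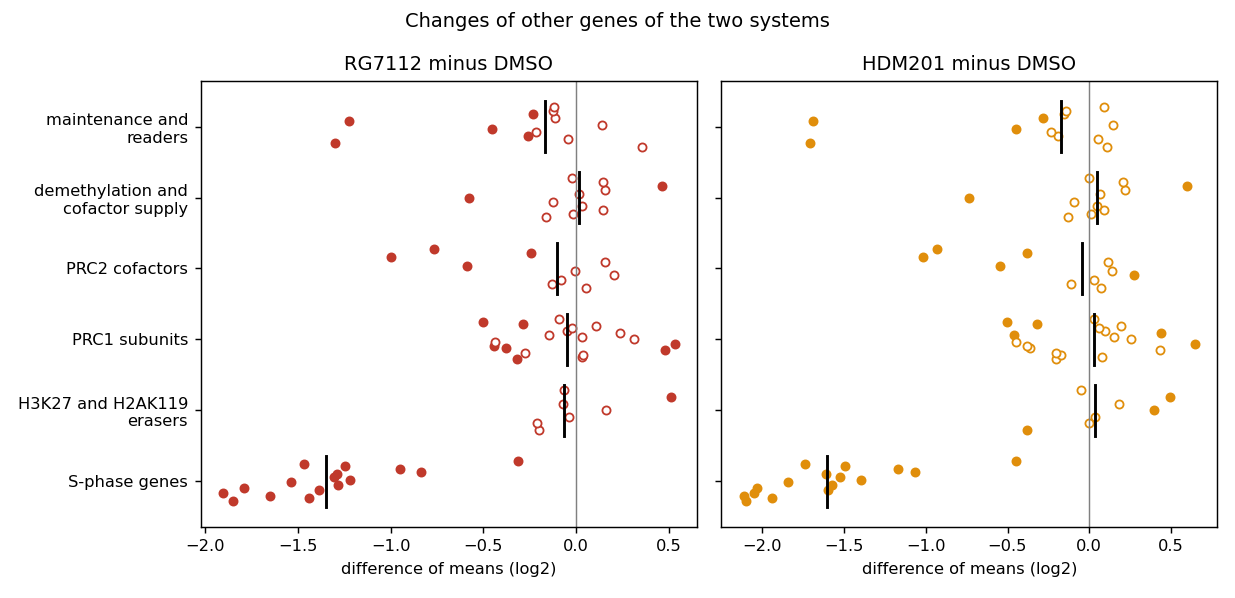
Change against DMSO (log2) of each measured gene in 6 lists, for RG7112 and HDM201; filled points have an adjusted p under 0.05 and vertical bars mark list medians. S-phase genes lie below 0 without exception, and the chromatin lists have medians from -0.17 to 0.05. UHRF1 and HELLS lie at the left end of the maintenance list, and PHF19 and RBBP7 at that of the PRC2 cofactors.

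S-phase genes moved with the falling members. All 16 measured genes fell under both compounds, where 9.61% and 9.64% of all probes fell. The median change of the 16 was -1.35 under RG7112 and -1.61 under HDM201. CDC6, which loads the replicative helicase, fell 3.14-fold and 4.33-fold, and E2F1, the S-phase transcription factor, 3.74-fold and 4.14-fold. Their mean signal per array was 8.10 to 8.82 under RG7112 and 7.82 to 8.49 under HDM201, against 9.61 to 9.91 under DMSO. The part of this shift in the falls of DNMT1, DNMT3B, TET1, EZH2 and SUZ12 was not tested, and in bulk RNA fewer cells in S phase and less RNA per cell cannot be told apart. PCNA, the replication clamp that binds DNMT1 and itself a p53 target, differed by 0.14 ± 0.10 under each compound and did not pass (adjusted p = 0.398 and 0.407).

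Genes with the nearest profiles were ranked by the root mean square distance over the 18 arrays after each gene's mean was subtracted. For DNMT3B they were ATAD2, CKS1B and KNL1, at 0.124 to 0.131 where the median gene was at 0.629, with changes of -1.08 to -1.17 under RG7112 and -1.26 to -1.31 under HDM201. For EZH2 they were SMC1A, DEK and ANAPC15 (0.122 to 0.134), for DNMT1 H2BC18, INAVA and TONSL (0.135 to 0.139), and for SUZ12 KLHDC3, DROSHA and KLHL5 (0.088 to 0.098). TET1 had no neighbour nearer than 0.205 (S100A4, then SLC4A7 and LYPD6B). For TET2 they were MTF1, RAC2 and SHTN1 (0.118 to 0.138) and for EZH1 TRIQK, ITM2B and DCAF5 (0.153 to 0.162). Distances of TET2, EZH1 and EZH2 include RG7112 replicate 3.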

How the data were processed

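RNA of 18 OCI-AML3 samples was measured on arrays. The authors deposited log2 signals made with the oligo package and RMA (background correction, quantile normalization, probe set summary), per the submitters' processing notes. Neither versions nor a build were given in those notes. All 18 columns were used, and 0 columns were left aside. Gene symbols came from GEO's platform annotation: 17709 of 21448 probes had 1 symbol, 0 several and 3739 none. Groups and replicate numbers came from the titles.

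A model of group means over all 18 arrays was fitted to every probe (limma 3.58.1, R 4.3.3) and the fit was tested on simulated data. Paralog differences were tested by exact permutation. The members, the gene lists and the replicate sets were chosen with earlier results of these data known. The text names all members, CDKN1A and MDM2, from each list up to 4 called genes with the largest changes and the largest that did not pass, and 3 nearest profiles. USP7 (with its alternatives), JARID2 under HDM201 and PCNA were added after their values were seen, as were the promoter windows and motifs. Alternatives covered the prior, array weights, dim probes, normalization, blocks, replicate sets and leaving out each array.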

Additional observations from a re-analysis of the deposited data

Results flagged for a closer look

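Each of the 44 genes named from the members and lists was examined in 3 groups for an array far from the other 5, which chance alone flags in about 1 of 20 groups, and 11 of the 132 groups were flagged. RG7112 replicate 3 accounts for 7 of them. Among the members it held TET2 at 7.70 (other arrays 8.81 to 9.22). Among the list genes it held L3MBTL2 at 7.5 (8.25 to 8.47), ASXL2 at 8.74 (9.54 to 9.87), KDM6B at 7.20 (8.19 to 8.57), SCML2 at 4.47 (5.32 to 5.72) and APEX1 at 10.54 (11.10 to 11.40), and DNMT3L at a high 5.93 (5.18 to 5.43). DNMT3A stood at 9.53 on DMSO replicate 1 (others 9.18 to 9.27), PCGF6 at 7.02 on DMSO replicate 1 (7.28 to 7.41), UHRF2 at 10.35 on DMSO replicate 5 (10.07 to 10.17) and OGT at 9.58 on HDM201 replicate 3 (9.82 to 9.89).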

How the results depend on the processing

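The falls of DNMT3B and SUZ12 under both compounds, and of DNMT1 and EZH2 under HDM201, kept direction and call in every alternative run and in all 18 fits without 1 array; for DNMT1, EZH2 and TET1 the calls lost were those within a replicate set given above. No called result changed sign. Members called numbered 5 to 7 for both compounds when 1 array was left out, and 3 for RG7112 within replicates 4 to 6. Changed probes numbered 1973 and 2148 for RG7112 within replicates 1 to 3 and 4 to 6, and 2504 and 2595 for HDM201, where fewer arrays were fitted. Of the named list genes, USP7, MBD2, RBBP4, SCML2 and L3MBTL2 under RG7112 lost their calls within both sets. UHRF2, JARID2, MTF2 and ASXL1 did so under HDM201. HDM201 against RG7112 gave 0 to 1 probes without 1 array. Probes whose response differed between the sets, 8 for RG7112 and 32 for HDM201, numbered 430 and 197 with array weights, 5 for RG7112 with medians subtracted, 20 for HDM201 without the dimmer probes, and 5 and 60 with only the 12 arrays compared, and 1 to 10 and 4 to 83 without 1 array (83 without RG7112 replicate 3); the cause was not tested. The TET2 minus TET3 shift under RG7112 was 0.20 to 0.46 without 1 array. The replicate number as a block left 5 and 7 members called, with PRC1 subunits called under HDM201 at 8 in place of 5. Over all probes the block gave 4780 calls for RG7112 in place of 3757, and 4866 for HDM201 in place of 4032. Same-numbered arrays correlated at 0.017 to 0.440 after subtraction of group means, over 0.1 in 16 of 18 pairs, and 12 of 18 correlated best with their own number, a hint from the data of a shared replicate effect. The numbers were not used as pairs in the main model, since no label ties them to a shared source and 2 of 18 pairs were at or under 0.1. With the block DNMT3L under RG7112 (adjusted p = 0.0452), PCGF2 under RG7112 (0.00922) and HDM201 (0.00666) and CBX7 under HDM201 (0.0239) passed. Paired by number, the TET1 minus TET3 shift under HDM201 of -0.67 had adjusted p = 0.0694 (exact permutation test). Without 1 array the maintenance list had 3 to 6 calls under RG7112 (3 without DMSO replicate 2, 3, 4 or 6 or RG7112 replicate 6), and PRC1 had 3 to 8 (3 or 4 without DMSO replicate 2, 3, 4 or 6) and, under HDM201, 4 to 11 (11 without RG7112 replicate 3). Each member has 1 probe, so averaging probes changes nothing.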
